A study of Homo sapiens with 8 samples.

Results

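The genes described are 41 genes of the hypoxia response and of glycolysis, chosen by symbol from a fixed list and all found among the 39533 gene rows of the count table. They were followed in HCT116, a line derived from a human colorectal carcinoma, in a model of self-seeding, in which circulating tumour cells return to a tumour. Compared were 3 libraries of tumour self-seeded cells (TSC) from the primary tumour and 2 libraries of circulating tumour cells (CTC) from blood, each set against 3 libraries of primary tumour cells (PC), also from the primary tumour. No genotype, treatment or time differs between the groups in the labels, all groups come from the same line, and the sources used here do not give the host animal or its age. Liver cancer is named in the title of the series, although the line is colorectal. Nothing states that the libraries of a group came from separate animals or cultures, so p-values measure only the spread between these libraries.

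Cells short of oxygen stabilise the alpha subunits of the hypoxia-inducible factors (HIF), which prolyl hydroxylases of the EGLN family otherwise mark for destruction through the VHL ubiquitin ligase. Stabilised HIF pairs with ARNT, binds DNA at short elements with the core letters CGTG, and induces genes for glucose uptake, glycolysis, vessel growth, acid handling and mitophagy. Glycolysis turns glucose into pyruvate, and its enzymes are also abundant in well-oxygenated tumour cells, so the enzyme genes respond to more than oxygen. In colorectal tumours hypoxia is common away from vessels, and the hypoxia genes are used there as a readout of that state.

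Total counts ranged from 4578869 to 14717833 in TSC, were 957607 and 10524069 in CTC and ranged from 10864761 to 19264595 in PC. The 41 genes took 1.59% to 1.73% of the counts in TSC, 1.37% and 1.32% in CTC and 1.65% to 2.11% in PC. A level of 3 counts, the floor below which a gene is not distinguished from absent, equalled 2.99 CPM (counts per 1e6 counts of the tested genes, after TMM scaling) in CTC replicate 1 and at most 0.668 CPM in each of the other libraries. The floor covers counting error only. Epithelial markers marked the line in every library, with EPCAM at 472 to 616 CPM in TSC, 546 and 568 CPM in CTC and 391 to 469 CPM in PC, whereas LGALS4 was listed at 0 throughout and VIL1 was near 0. Leukocyte markers, 14 genes, summed to 27.2 to 52.2 CPM in TSC, 443.9 and 174 CPM in CTC and 15.1 to 23.6 CPM in PC. Of these, 7 of the 8 tested were called higher in CTC than in PC, while CD3E, S100A8 and S100A9 were at 0 in every library. PTPRC, which encodes the leukocyte marker CD45, counted 0, 0 and 0.452 CPM in TSC, 31.9 and 7.63 CPM in CTC and 0.503, 0 and 0 CPM in PC. Erythroid markers, 8 genes, summed to 80.4 to 93.5 CPM in TSC, 247 and 331 CPM in CTC and 50.4 to 63.3 CPM in PC, with HBB at 0.446, 0.494 and 0.0904 CPM in TSC, 164 and 209 CPM in CTC and 0.754, 0.276 and 0 CPM in PC and HBA2 at 0. Fibroblast markers, 7 genes, summed to 11.6 to 117 CPM in TSC, 22.9 and 10.2 CPM in CTC and 36.6 to 74.6 CPM in PC, with DCN and LUM at 0, and the platelet and endothelial lists stayed at or below 3.99 CPM. The leukocyte and erythroid sums were thus highest in CTC, and those of TSC also lay above all PC libraries. The TSC sums rest on a part of each list, PTPRC and HBB being near 0 there. In TSC replicates 1, 2 and 3, 10, 8 and 5 leukocyte markers and 6, 5 and 6 erythroid markers had 0 counts. In TSC against PC, edgeR called 0 of the 8 tested leukocyte and 0 of the 4 tested erythroid markers, and limma-voom called 1, HBD, higher. The part of such cells in the results below was not tested. In such bulk samples, fewer cells of a type and less RNA per cell cannot be told apart.

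Most hypoxia genes gave lower values in TSC and in CTC than in PC, few of them past the test, whereas most glycolytic enzyme genes overlapped PC in TSC and lay below PC in CTC. Of the 41 genes, 40 passed the filter on low counts and LDHA did not. In TSC against PC, 1 of the 40 fell (ANKRD37), 0 rose and 39 did not pass the test, where 0.281% of all 14255 tested genes fell, 0.224% rose and 0.505% changed in either direction. At an unadjusted p under 0.05, 16 of the 40 were lower and 0 higher, set beside 5.25% of all tested genes lower and 5.05% higher. In CTC against PC, 7 fell (ALDOC, PFKFB4, PFKL, SLC2A1, P4HA2, ENO2 and ANKRD37) and 0 rose, where 2.52% of all tested genes fell, 1.4% rose and 3.92% changed. At the unadjusted level 27 were lower and 0 higher, beside 13.9% lower and 9.67% higher among all tested genes. DESeq2 and limma-voom called 0 of the 40 higher in either comparison. DESeq2 called 5 of them lower in TSC and 14 in CTC, where it called 1.34% and 7.89% of all tested genes in either direction. Limma-voom called 9 lower in TSC and 21 in CTC, where it called 3.88% and 11.6% of all tested genes. All adjusted p-values are Benjamini-Hochberg values from the quasi-likelihood test of edgeR, over the 14255 tested genes. Where libraries were left out or thinned, they are over the genes tested in that fit.

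The median log2 fold change of the 40 genes was −0.33 in TSC against PC, where the median of all tested genes was 0.01, and −0.85 in CTC against PC, where it was −0.04. Their fold changes were negative for 30 of 40 in TSC against PC (49.1% of all tested genes) and for 38 of 40 in CTC against PC (52.6% of all tested genes). All TSC libraries lay below all PC libraries for 17 of 40 genes, beside 9.9% of all tested genes, and all above for 1, AK4, beside 8.96%. Both CTC libraries lay below all PC libraries for 31 genes, beside 24.7% of all tested genes, and above for 1, PGAM1, beside 19.9%. In TSC, 11 of the 18 hypoxia targets outside glucose metabolism and 3 of the 15 tested glycolytic enzymes (HK1, PFKM and ENO2) lay below PC without overlap. In CTC these counts were 13 of 18 and 12 of 15. Both comparisons use the same PC libraries.

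**Figure D1:**
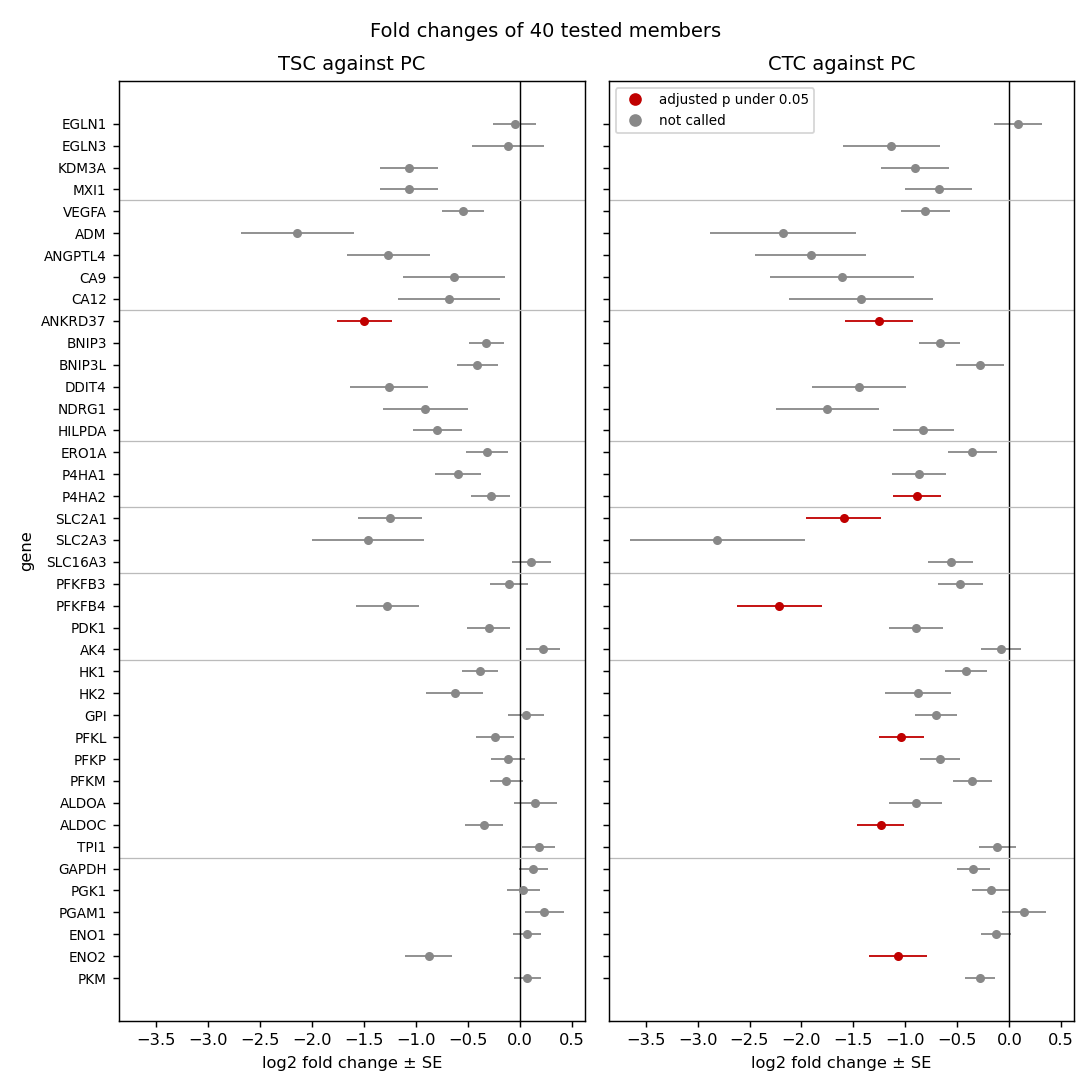
Log2 fold changes with SE for the 40 tested genes, grouped by role, in TSC against PC and in CTC against PC, with genes at an adjusted p under 0.05 in red. All 18 hypoxia targets lie left of 0 in TSC and, apart from EGLN1, in CTC, with ADM at −2.14 in TSC and −2.18 in CTC, whereas the enzymes of lower glycolysis other than ENO2 lie near 0.

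The stress and mitophagy targets held 1 gene that fell in TSC, ANKRD37, which also fell in CTC. ANKRD37, an ankyrin repeat protein gene that HIF1A is known to induce, is on chromosome 4 (chr4:185396021-185400628, plus strand, GRCh38) and counted 6.02, 9.67 and 11.8 CPM in TSC, 9.97 and 11.5 CPM in CTC and 23.7, 26.6 and 28.8 CPM in PC. All 5 TSC and CTC libraries were below all 3 PC libraries. It was 2.82-fold lower in TSC than in PC (log2 fold change −1.50 ± 0.27 SE, adjusted p = 0.0201) and 2.38-fold lower in CTC than in PC (−1.25 ± 0.33 SE, adjusted p = 0.0483). Its exons share 909 bases, 35.2% of their length, with UFSP2 on the opposite strand, and since the sources used here do not give the strand setting of the counting, reads of the pair cannot be told apart. UFSP2 itself counted 26.1, 24.8 and 21.6 CPM in TSC, 22.9 and 32.7 CPM in CTC and 22.0, 20.6 and 24.1 CPM in PC, with the groups overlapping. The call in TSC against PC was lost without TSC replicate 3 (adjusted p = 0.0535) and without PC replicate 1 (0.0732), 2 (0.125) or 3 (0.114), with log2 fold changes between −1.72 and −1.44. In CTC against PC the call was lost without any of TSC replicate 3, CTC replicate 1, CTC replicate 2 and the 3 PC replicates, with adjusted p between 0.0641 and 0.285. It was also lost with libraries thinned to the shallowest (adjusted p = 0.0884).

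Promoter sequences are shown for ANKRD37 and for 3 of the genes of glucose metabolism that passed the test in CTC against PC (ALDOC, PFKFB4 and ENO2). They are examples. The other called genes, SLC2A1, PFKL and P4HA2, are not shown, and their windows held 0 matches to ACGTG. The windows run from 250 bases before to 50 bases after the start, 5′ to 3′ on the gene's strand, from RefSeq on GRCh38.p14, and capitals mark ACGTG or its reverse complement CACGT. The ANKRD37 window is chr4:185396591-185396890 on the plus strand, ALDOC chr17:28576846-28577145 on the minus strand, PFKFB4 chr3:48556754-48557053 on the minus strand and ENO2 chr12:6914330-6914629 on the plus strand.
ANKRD37: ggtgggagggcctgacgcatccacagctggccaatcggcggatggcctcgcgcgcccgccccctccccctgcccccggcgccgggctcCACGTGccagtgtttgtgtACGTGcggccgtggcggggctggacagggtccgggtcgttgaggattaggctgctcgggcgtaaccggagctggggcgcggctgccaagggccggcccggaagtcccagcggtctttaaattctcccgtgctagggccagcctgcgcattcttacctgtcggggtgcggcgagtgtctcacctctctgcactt
ALDOC: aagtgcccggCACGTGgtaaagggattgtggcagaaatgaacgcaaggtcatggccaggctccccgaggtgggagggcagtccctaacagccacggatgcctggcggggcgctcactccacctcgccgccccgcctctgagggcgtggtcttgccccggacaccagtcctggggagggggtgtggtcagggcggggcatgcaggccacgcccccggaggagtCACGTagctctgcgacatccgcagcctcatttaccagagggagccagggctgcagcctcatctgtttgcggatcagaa
PFKFB4: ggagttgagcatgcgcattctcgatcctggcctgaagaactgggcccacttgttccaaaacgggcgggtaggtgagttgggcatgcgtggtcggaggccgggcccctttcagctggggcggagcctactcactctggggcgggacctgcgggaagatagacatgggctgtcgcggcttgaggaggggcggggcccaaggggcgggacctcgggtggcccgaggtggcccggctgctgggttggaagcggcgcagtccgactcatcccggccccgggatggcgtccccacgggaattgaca
ENO2: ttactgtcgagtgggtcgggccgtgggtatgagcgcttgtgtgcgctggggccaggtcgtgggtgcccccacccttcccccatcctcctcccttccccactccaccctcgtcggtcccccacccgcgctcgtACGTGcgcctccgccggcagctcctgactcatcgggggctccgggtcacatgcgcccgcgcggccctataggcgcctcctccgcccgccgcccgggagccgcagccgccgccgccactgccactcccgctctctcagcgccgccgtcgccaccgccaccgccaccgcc
Counting both strands, ANKRD37 had 3 matches to ACGTG and ALDOC 3, since CACGTG is a match on each strand, ENO2 had 1 and PFKFB4 had 0. GCGTG, which holds the same core letters CGTG and is not in capitals, had 2 matches in ALDOC, 1 in PFKFB4 and 0 in ANKRD37 and ENO2. Of the 41 genes, 36 have at least 1 window in the RefSeq table, and VEGFA, BNIP3L, NDRG1, HILPDA and SLC2A3 have none there. ACGTG occurred in 29 of the 68 windows of the 36 genes (42.6%), in 24 of these genes, against 7518 of 35116 windows of all genes (21.4%). GCGTG occurred in 30 of the 68 windows (44.1%) against 36.5% of all windows. In TSC against PC, the median log2 fold change was −0.30 for the 23 tested genes with ACGTG and −0.33 for the 12 without. In CTC against PC the medians were −0.68 with ACGTG and −0.97 without. A match describes the letters of a window and no binding.

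**Figure D2:**
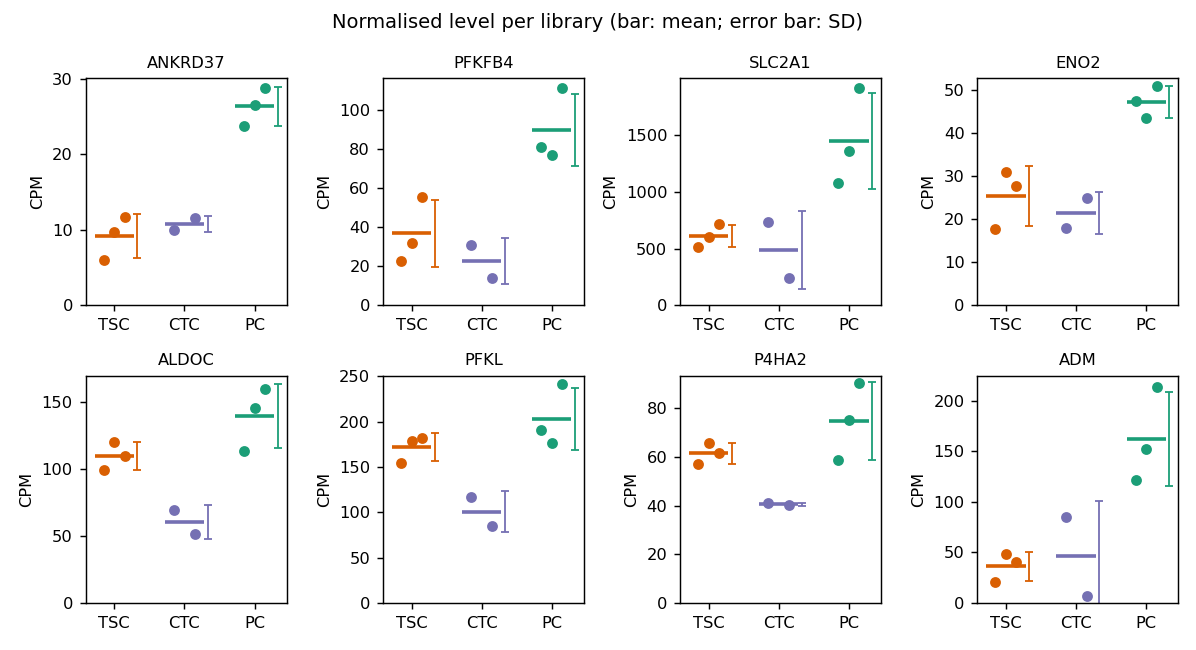
Normalised counts (CPM, linear axis from 0) of the 7 called genes and of ADM in each library, as points, with a horizontal line for the mean and an error bar for the SD of each group, TSC, CTC and PC from left to right, the error bar of ADM in CTC being cut at 0. ANKRD37 sits between 6.02 and 11.8 CPM in TSC, with PC between 23.7 and 28.8 CPM, and the CTC libraries of ADM lie apart, at 84.8 and 7.15 CPM.

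The other 5 stress and mitophagy targets gave lower group means in TSC and CTC without passing the test of edgeR. DDIT4, which encodes a stress-induced inhibitor of mTORC1 signalling, counted 49.5, 173 and 152 CPM in TSC, 167 and 65.1 CPM in CTC and 282, 265 and 356 CPM in PC. Every TSC and CTC library was below every PC library, with log2 fold changes of −1.26 ± 0.38 SE in TSC against PC (adjusted p = 0.220) and −1.45 ± 0.45 SE in CTC against PC (adjusted p = 0.0791). Its exons share 41.2% of their bases with the antisense gene DDIT4-AS1. HILPDA, a lipid droplet protein that slows lipolysis, counted 17.8, 15.1 and 25.6 CPM in TSC, 19.9 and 18.7 CPM in CTC and 33.3, 29.4 and 38.9 CPM in PC. It too had no overlap with PC, with log2 fold changes of −0.79 ± 0.24 SE in TSC against PC (adjusted p = 0.215) and −0.83 ± 0.29 SE in CTC against PC (adjusted p = 0.108). NDRG1, a growth arrest gene of the hypoxia response, counted 184, 442 and 343 CPM in TSC, 297 and 79.1 CPM in CTC and 417, 488 and 918 CPM in PC, and TSC overlapped PC whereas CTC did not. Its log2 fold change in CTC against PC was −1.75 ± 0.50 SE, adjusted p = 0.0614. The mitophagy receptors BNIP3 and BNIP3L, which mark mitochondria for removal, ranged over 101 to 115 CPM in TSC, 80.6 and 92.8 CPM in CTC and 122 to 156 CPM in PC for BNIP3, and over 125 to 186 CPM in TSC, 133 and 209 CPM in CTC and 193 to 227 CPM in PC for BNIP3L. BNIP3 had log2 fold changes of −0.32 in TSC and −0.67 in CTC against PC, and its level is uncertain because the annotation names 39 pseudogenes of it. Of the 6 stress and mitophagy genes, 1 fell by edgeR in each comparison with PC, and all 6 fold changes were negative in both. DESeq2 called ANKRD37 lower in TSC and ANKRD37 and BNIP3 lower in CTC than in PC. By limma-voom, ANKRD37 and DDIT4 were called lower in TSC, and ANKRD37, BNIP3, DDIT4 and NDRG1 in CTC.

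The oxygen-sensing and feedback genes divided within the list. EGLN1 and EGLN3, prolyl hydroxylases that are themselves HIF targets, showed values near those of PC in TSC. EGLN1, the main oxygen sensor of this family, ranged over 118 to 179 CPM in TSC, 146 and 184 CPM in CTC and 128 to 196 CPM in PC, with a log2 fold change of −0.05 in TSC against PC and 0.08 in CTC against PC. EGLN3 ranged over 7.35 to 20.4 CPM in TSC, 6.49 and 12.0 CPM in CTC and 13.8 to 21.9 CPM in PC, at −0.12 in TSC and −1.13 in CTC. KDM3A, a histone H3 lysine demethylase, counted 61.1, 123 and 129.9 CPM in TSC, 156 and 86.9 CPM in CTC and 186, 198 and 277 CPM in PC. All TSC and CTC libraries were below PC, with TSC replicate 1 the lowest, with log2 fold changes of −1.07 ± 0.28 SE in TSC against PC (adjusted p = 0.135) and −0.91 ± 0.33 SE in CTC against PC (adjusted p = 0.115). MXI1, a MAX partner that opposes MYC, counted 26.7, 60.4 and 61.0 CPM in TSC, 76.8 and 56.8 CPM in CTC and 84.3, 94.7 and 134 CPM in PC. Its TSC and CTC libraries were likewise all below PC, with log2 fold changes of −1.07 ± 0.28 SE in TSC against PC (adjusted p = 0.135) and −0.68 ± 0.33 SE in CTC against PC (adjusted p = 0.222). Of the 4 genes, 0 passed the test in either comparison by edgeR, and 2 had an unadjusted p under 0.05 in each. DESeq2 called KDM3A and MXI1 in TSC and 0 genes in CTC, and limma-voom called KDM3A and MXI1 in TSC and KDM3A in CTC, all lower than PC.

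Secreted and surface products of the response had the lowest medians among the hypoxia targets in CTC. ADM, which encodes the vasodilator adrenomedullin, counted 20.3, 48.3 and 40.2 CPM in TSC, 84.8 and 7.15 CPM in CTC and 122, 153 and 213 CPM in PC. All 5 TSC and CTC libraries were below PC, but the CTC libraries differed from each other more, on the log2 scale, than for any other of the 40 genes. Its log2 fold changes were −2.14 ± 0.54 SE, adjusted p = 0.134 in TSC against PC, a 4.41-fold lower level, and −2.18 ± 0.70 SE, adjusted p = 0.0865 in CTC against PC. ANGPTL4, a secreted inhibitor of lipoprotein lipase, counted 10.5, 48.2 and 33.6 CPM in TSC, 33.9 and 13.6 CPM in CTC and 61.6, 66.7 and 99.3 CPM in PC. It was below PC in each of these libraries, with log2 fold changes of −1.27 ± 0.40 SE in TSC against PC (adjusted p = 0.265) and −1.91 ± 0.53 SE in CTC against PC (adjusted p = 0.0568). VEGFA, the main vascular endothelial growth factor, counted 72.4, 114 and 101 CPM in TSC, 95.8 and 68.8 CPM in CTC and 124, 143 and 155 CPM in PC. No TSC or CTC library reached the lowest PC library, with log2 fold changes of −0.55 ± 0.20 SE in TSC against PC (adjusted p = 0.369) and −0.81 ± 0.24 SE in CTC against PC (adjusted p = 0.0683). The carbonic anhydrase genes, whose products handle acid at the cell surface, were low and overlapped between groups, with CA9 at 2.71 to 9.58 CPM in TSC, 1.91 and 5.98 CPM in CTC and 5.36 to 11.8 CPM in PC and CA12 at 3.35 to 7.80 CPM in TSC, 1.62 and 7.98 CPM in CTC and 5.89 to 12.0 CPM in PC. CA9 shares 38.5% of its exon bases with ARHGEF39 on the opposite strand. Of the 5 genes, 0 passed the test in either comparison by edgeR, while 3 in TSC and 4 in CTC had an unadjusted p under 0.05, all lower than PC. DESeq2 called 0 in TSC and VEGFA in CTC, and limma-voom called ADM and ANGPTL4 in TSC and 4 of the 5, all but CA9, in CTC.

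Among the genes of protein folding and collagen modification, 1 fell in CTC by edgeR. In TSC, 0 of 3 were called by edgeR, DESeq2 or limma-voom, with 1 at an unadjusted p under 0.05. P4HA2, a catalytic subunit of collagen prolyl 4-hydroxylase, counted 57.0, 65.8 and 61.4 CPM in TSC, 40.9 and 40.1 CPM in CTC and 58.6, 75.1 and 90.4 CPM in PC. Both CTC libraries were below all other libraries, whereas TSC overlapped PC. It was 1.85-fold lower in CTC than in PC (log2 fold change −0.89 ± 0.23 SE, adjusted p = 0.0445), and −0.28 in TSC against PC. The call in CTC was lost with libraries thinned to the shallowest (adjusted p = 0.0911). DESeq2 and limma-voom called P4HA2 and P4HA1 lower in CTC. P4HA1, which encodes another catalytic subunit of that enzyme, counted 143, 147 and 135 CPM in TSC, 157 and 84.8 CPM in CTC and 168, 211 and 262 CPM in PC. TSC and CTC did not overlap PC, with log2 fold changes of −0.59 ± 0.22 SE in TSC against PC (adjusted p = 0.373) and −0.87 ± 0.26 SE in CTC against PC (adjusted p = 0.0696). ERO1A, the oxidase that renews protein disulfide isomerase in the endoplasmic reticulum, ranged over 140.2 to 182 CPM in TSC, 116 and 196 CPM in CTC and 166 to 224 CPM in PC, and its groups overlapped.

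**Figure D3:**
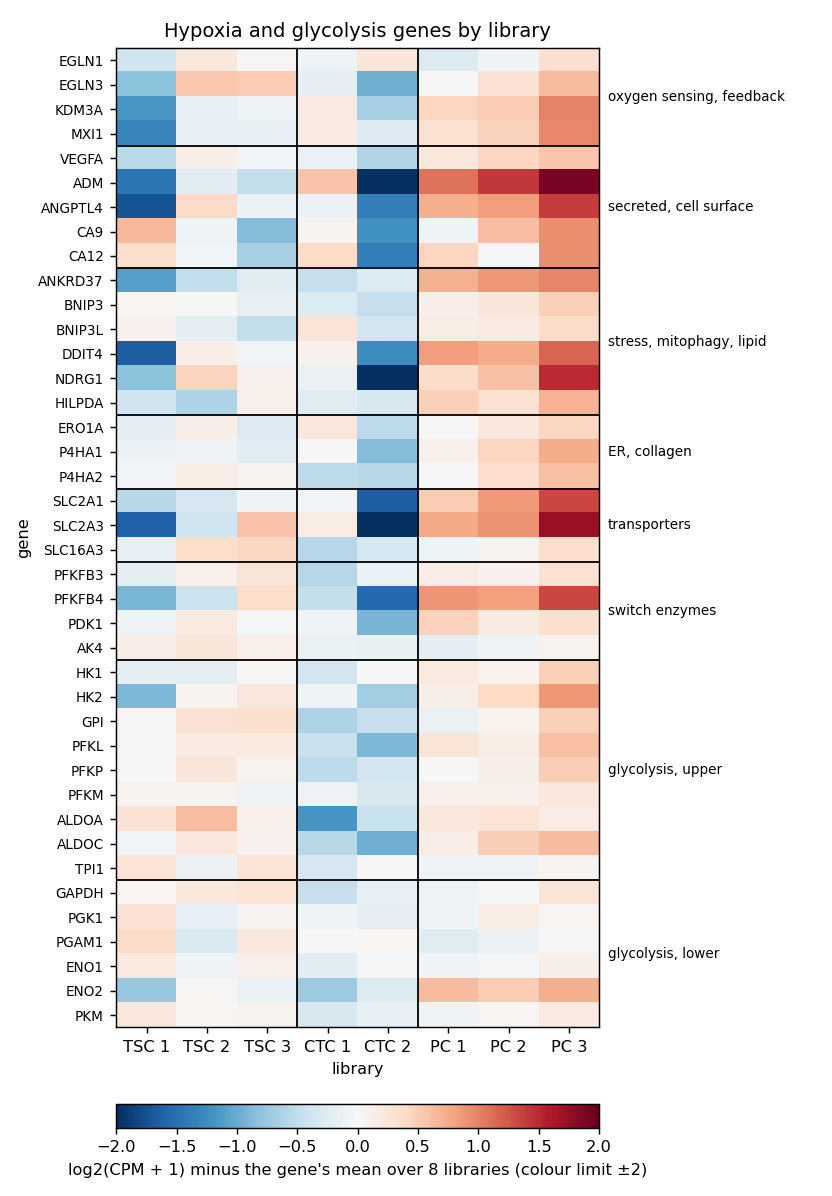
Colour gives log2(CPM + 1) of the 40 tested genes minus each gene's mean over the 8 libraries, red above and blue below, limited to 2 in either direction, with libraries in columns ordered TSC, CTC, PC and genes in rows by role. PC replicate 3 is the highest of the 8 libraries for 30 of the 40 genes, and CTC replicate 2 has the lowest value for 18.

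Of the 3 transporter genes, SLC2A1 fell in CTC by edgeR. In TSC, 0 were called by edgeR, with 2 at an unadjusted p under 0.05, 0 by DESeq2 and 1, SLC2A1, by limma-voom. SLC2A1, which encodes the glucose transporter GLUT1, counted 517, 601 and 713 CPM in TSC, 733 and 241 CPM in CTC and 1078, 1363 and 1911 CPM in PC. All TSC and CTC libraries were below PC, with CTC replicate 2 the lowest. It fell 3.02-fold in CTC against PC (log2 fold change −1.59 ± 0.36 SE, adjusted p = 0.0277), and its value in TSC against PC, −1.25 ± 0.31 SE, adjusted p = 0.122, did not pass the test of edgeR. SLC2A3, encoding the high-affinity transporter GLUT3, counted 2.23, 6.49 and 13.7 CPM in TSC, 9.97 and 1.34 CPM in CTC and 15.7, 17.5 and 31.3 CPM in PC. It was below PC in every TSC and CTC library at these low levels, with log2 fold changes of −1.46 ± 0.54 SE in TSC against PC (adjusted p = 0.374) and −2.81 ± 0.84 SE in CTC against PC (adjusted p = 0.0701). SLC16A3, encoding the lactate exporter MCT4, counted 146, 207 and 217 CPM in TSC, 109.7 and 127 CPM in CTC and 153, 169.9 and 206 CPM in PC. TSC overlapped PC while both CTC libraries were below all the others, with log2 fold changes of 0.11 ± 0.19 SE in TSC against PC (adjusted p = 0.890) and −0.56 ± 0.22 SE in CTC against PC (adjusted p = 0.140).

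The metabolic switch genes were led by PFKFB4, a hypoxia-induced isozyme of the enzyme that makes and breaks fructose 2,6-bisphosphate, the activator of phosphofructokinase. PFKFB4 counted 22.7, 31.9 and 55.7 CPM in TSC, 30.9 and 14.1 CPM in CTC and 81.2, 77.3 and 111 CPM in PC. All 5 TSC and CTC libraries were below the lowest PC library. It fell 4.64-fold in CTC against PC (log2 fold change −2.21 ± 0.41 SE, adjusted p = 0.0114) and was 2.42-fold lower in TSC against PC without passing the test of edgeR (−1.27 ± 0.30 SE, adjusted p = 0.0998). DESeq2 and limma-voom did call it lower in TSC than in PC. PFKFB3, the isozyme with the strongest kinase activity, ranged over 59.0 to 80.2 CPM in TSC, 44.9 and 61.7 CPM in CTC and 71.1 to 83.6 CPM in PC, with −0.10 in TSC and −0.47 in CTC against PC. PDK1, the kinase that shuts pyruvate out of mitochondria by inactivating pyruvate dehydrogenase, counted 44.8, 54.2 and 46.6 CPM in TSC, 44.9 and 24.6 CPM in CTC and 65.8, 54.1 and 59.4 CPM in PC. CTC was below PC and TSC overlapped PC, with log2 fold changes of −0.30 ± 0.21 SE in TSC against PC (adjusted p = 0.666) and −0.90 ± 0.26 SE in CTC against PC (adjusted p = 0.0651). PDK1 was called lower in CTC by DESeq2 and limma-voom. AK4, a mitochondrial adenylate kinase, ranged over 65.9 to 72.3 CPM in TSC, 55.0 and 55.9 CPM in CTC and 53.6 to 64.0 CPM in PC, and it was the only one of the 40 genes with every TSC library above every PC library, at 0.22 ± 0.16 SE, adjusted p = 0.686.

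**Figure D4:**
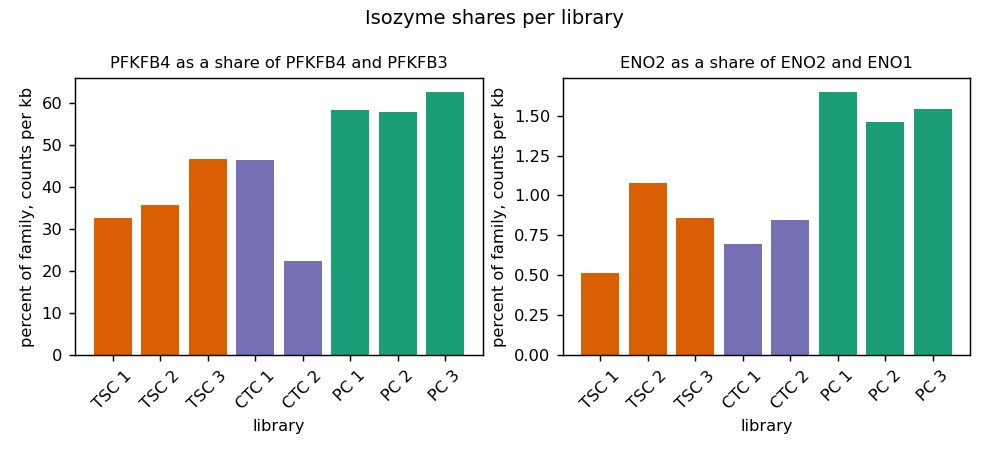
Bars give the share (%) of PFKFB4 in PFKFB3 and PFKFB4 and of ENO2 in ENO1 and ENO2, from counts per kb, in each library, with TSC, CTC and PC from left to right. PFKFB4 held 32.7% to 46.7% in TSC, 22.4% and 46.5% in CTC and 57.8% to 62.7% in PC.

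Within isozyme families, levels were set per length of the longest annotated transcript. PFKFB4 took 32.7, 35.7 and 46.7% in TSC, 46.5 and 22.4% in CTC and 58.2, 57.8 and 62.7% in PC of the level of PFKFB3 and PFKFB4 together. ENO2, the neuronal enolase, took 0.515, 1.07 and 0.858% in TSC, 0.693 and 0.844% in CTC and 1.65, 1.46 and 1.54% in PC of the level of ENO1 and ENO2. Both shares were below PC in every TSC and CTC library. HK2, the hypoxia-induced hexokinase, took 35.5, 51.6 and 50.8% in TSC, 52.7 and 35.3% in CTC and 45.8, 52.9 and 54.1% in PC of the level of HK1 and HK2, and these groups overlapped. PFKP took 65.1, 67.6 and 65.9% in TSC, 61.3 and 68.4% in CTC and 62.8, 65.4 and 66.8% in PC of the phosphofructokinase level, with little difference between groups. The levels of the shares depend on the transcript length used.

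The upper steps of glycolysis, from glucose to triose phosphate, held ALDOC and PFKL, which fell in CTC. In TSC against PC, 0 of these 9 genes were called by edgeR, DESeq2 or limma-voom, with 2 at an unadjusted p under 0.05. DESeq2 called 5 lower in CTC than in PC, with ALDOA, GPI and PFKP added, and limma-voom 5, with GPI, HK2 and PFKP added. ALDOC, the brain-type aldolase and a HIF target, counted 99.2, 120.4 and 109.6 CPM in TSC, 69.8 and 51.8 CPM in CTC and 113, 146 and 160.2 CPM in PC. Both CTC libraries were below all 6 other libraries, and TSC overlapped PC. It was 2.36-fold lower in CTC than in PC (log2 fold change −1.24 ± 0.23 SE, adjusted p = 0.0108), and −0.35 ± 0.18 SE, adjusted p = 0.555 in TSC against PC. PFKL, the liver-type phosphofructokinase of the committed step, counted 155, 179 and 182 CPM in TSC, 117 and 84.9 CPM in CTC and 191, 177 and 242 CPM in PC. CTC was again below every other library, with 2.05-fold lower levels than PC (−1.04 ± 0.22 SE, adjusted p = 0.0198) and −0.24 ± 0.18 SE, adjusted p = 0.694 in TSC against PC. ALDOA, the main aldolase, counted 51.7, 65.3 and 45.2 CPM in TSC, 17.95 and 30.5 CPM in CTC and 48.8, 50.9 and 46.7 CPM in PC, with CTC below PC and TSC overlapping PC, at −0.90 ± 0.25 SE, adjusted p = 0.0609 in CTC against PC. Its exons share 42.3% of their bases with another gene model on the same strand, so its counts are uncertain. GPI, which converts glucose 6-phosphate to fructose 6-phosphate, counted 522, 634 and 641 CPM in TSC, 333 and 371 CPM in CTC and 469.6, 539 and 715 CPM in PC. It had the same order, at 0.06 ± 0.17 SE, adjusted p = 0.938 in TSC and −0.70 ± 0.20 SE, adjusted p = 0.0618 in CTC against PC.

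The hexokinases open glycolysis by trapping glucose as its phosphate. HK2 counted 96.9, 188 and 213 CPM in TSC, 174 and 111 CPM in CTC and 196, 241 and 334 CPM in PC, and its values were −0.63 ± 0.27 SE, adjusted p = 0.452 in TSC and −0.88 ± 0.32 SE, adjusted p = 0.121 in CTC against PC. The TSC libraries overlapped PC and the CTC libraries did not. HK1, the more widely expressed hexokinase, ranged over 122 to 143 CPM in TSC, 108 and 141 CPM in CTC and 148 to 196 CPM in PC, with log2 fold changes of −0.38 in TSC and −0.42 in CTC. PFKP, the platelet phosphofructokinase, gave −0.11 in TSC and −0.67 in CTC, and PFKM, the muscle form, −0.13 in TSC and −0.36 in CTC. TPI1, which interconverts the triose phosphates, gave 0.18 in TSC and −0.12 in CTC.

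The lower steps, from triose phosphate to lactate, differed little in TSC, apart from ENO2. ENO2 counted 17.6, 30.8 and 27.7 CPM in TSC, 17.95 and 24.8 CPM in CTC and 47.3, 43.3 and 50.8 CPM in PC. Its TSC and CTC libraries were all below PC. It fell 2.10-fold in CTC against PC (log2 fold change −1.07 ± 0.28 SE, adjusted p = 0.0451), and its value in TSC against PC was −0.88 ± 0.22 SE, adjusted p = 0.135. DESeq2 and limma-voom called it lower in both comparisons. GAPDH, which makes the NADH of glycolysis, ranged over 4872 to 5775 CPM in TSC, 3461 and 4261 CPM in CTC and 4442 to 5670.4 CPM in PC, and both CTC libraries were below PC. PGK1, the first ATP-making enzyme of the pathway, ranged over 381 to 524 CPM in TSC, 373 and 401 CPM in CTC and 403 to 472 CPM in PC. PGAM1, which moves the phosphate of phosphoglycerate, ranged over 115 to 186 CPM in TSC, 144 and 146 CPM in CTC and 119.6 to 143 CPM in PC, and it was the only gene of the 40 with both CTC libraries above PC. ENO1, the common enolase, ranged over 2559 to 3063 CPM in TSC, 2318 and 2625 CPM in CTC and 2543 to 2921 CPM in PC, and PKM, pyruvate kinase, over 2683 to 3038 CPM in TSC, 2089 and 2324 CPM in CTC and 2462 to 2914 CPM in PC. The log2 fold changes of these 5 genes ran from 0.04 to 0.24 in TSC against PC and from −0.35 to 0.14 in CTC against PC. GAPDH has 62 named pseudogenes, PGAM1 13, PKM 5, ENO1 4 and PGK1 1, so their counts are uncertain. LDHA, the lactate dehydrogenase subunit induced by HIF, had 1 count in CTC replicate 1 and 1 in PC replicate 3 and was listed at 0 in the other 6 libraries. LDHB, the other main subunit of the enzyme, counted 1028, 708 and 904 CPM in TSC, 948 and 978 CPM in CTC and 842, 919 and 777 CPM in PC. SLC16A1 and EGLN2, which are not among the 41, were at or near 0 like LDHA, so the rows of these 3 genes were not read as levels.

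Summed over the 18 hypoxia targets outside glucose metabolism, levels were 1239, 1906 and 1643 CPM in TSC, 1807 and 1056 CPM in CTC and 2195, 2453 and 3421 CPM in PC. All TSC and CTC sums were below all PC sums, at 0.593 times the PC mean in TSC and 0.532 times in CTC. Summed over the 16 glycolytic enzymes, levels were 14165, 13798 and 14786 CPM in TSC, 10218 and 11710.1 CPM in CTC and 12400.4, 13111 and 15241 CPM in PC. Here TSC overlapped PC, at 1.05 times its mean, and CTC was below PC, at 0.807 times. Among the 18 targets, the median log2 fold change was −0.66 in TSC and −0.90 in CTC against PC, with 18 negative in TSC and 17 in CTC. Among the 15 tested enzymes it was 0.035 in TSC, with 7 negative, and −0.42 in CTC, with 14 negative. The glycolytic sums are dominated by a few abundant enzymes. In the hypoxia sums of PC, NDRG1 and DDIT4 weigh most, with means of 607 and 301 CPM of the 2690 CPM mean. No test was made of a sum.

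**Figure D5:**
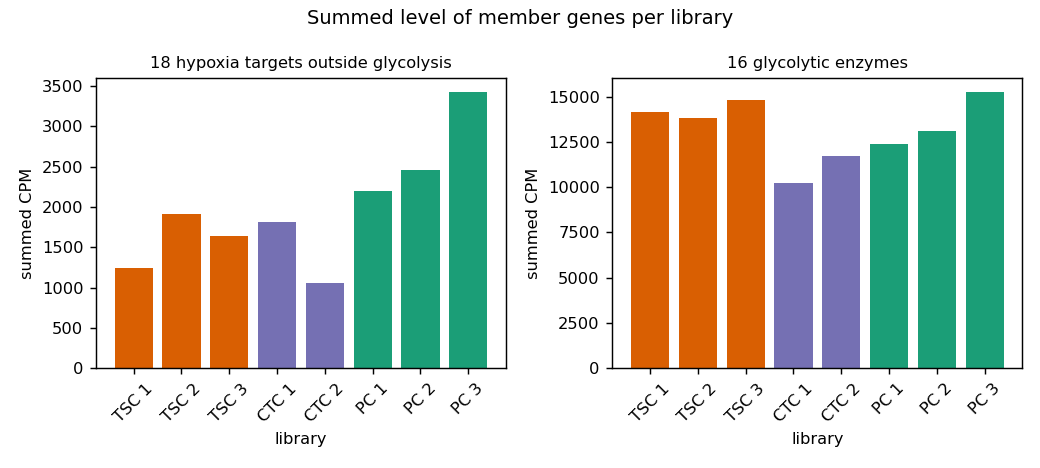
Summed CPM of the hypoxia targets and of the glycolytic enzymes in each library as bars (linear axis from 0), with TSC, CTC and PC from left to right. Hypoxia targets sum to 1239 to 1906 CPM in TSC, 1056 and 1807 CPM in CTC and 2195 to 3421 CPM in PC, whereas the enzyme sums of TSC (13798 to 14786 CPM) lie within those of PC (12400.4 to 15241 CPM).

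TSC and CTC were compared directly as well. By edgeR, 0 of the 40 genes passed the test in TSC against CTC, where 0.898% of all tested genes did, 0.372% higher and 0.526% lower. At an unadjusted p under 0.05, 12 were higher in TSC and 0 lower, beside 10.3% higher and 6.36% lower among all tested genes. DESeq2 called 4 of the 40, beside 2.74% of all tested genes, and limma-voom 6, beside 3.09%. The fold change was positive for 35 of 40, 44.9% of all tested genes being negative, and the median was 0.32, beside 0.06 for all tested genes. All TSC libraries lay above both CTC libraries for 11 genes, beside 15.4% of all tested genes, and below for 0, beside 13%. The 5 genes with the smallest p were ALDOA (1.05 ± 0.26 SE, adjusted p = 0.0747), ALDOC (0.89 ± 0.22 SE, adjusted p = 0.0838), GPI (0.76 ± 0.20 SE, adjusted p = 0.0923), PFKL (0.80 ± 0.21 SE, adjusted p = 0.0992) and SLC16A3 (0.67 ± 0.22 SE, adjusted p = 0.156), whose values in every library are given above. Each had TSC above CTC without overlap, ALDOA 2.07-fold. All 15 tested enzymes had a positive fold change, median 0.30, against 13 of 18 hypoxia targets, median 0.22. Without TSC replicate 1, 6 of the 40 genes passed the test, beside 4.91% of all tested genes. Without CTC replicate 2 the median was 0.12, equal to that of all genes at that setting.

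Single libraries stood apart within the groups. PC replicate 3, the deepest, had the highest PC value for all 18 hypoxia targets and for 13 of the 15 enzymes. TSC replicate 1 had the lowest TSC value for 24 of the 40 genes, 11 of them among the 18 hypoxia targets. CTC replicate 2 was below CTC replicate 1 for 16 of the 18 hypoxia targets but for 5 of the 15 enzymes, CTC replicate 1 being the lower for 10. Without CTC replicate 2, 0 of the 40 genes passed the test in CTC against PC, with adjusted p = 0.203 for ALDOC and 0.257 for PFKFB4 and a median of −0.58. The count was 22 without TSC replicate 1 and 14 without TSC replicate 2, where 11.1% and 7.45% of all tested genes passed. It was 3 without TSC replicate 3 (2.01% of all tested genes), PC replicate 1 (1.26%) or PC replicate 2 (1.29%). Without PC replicate 3 it was 2 (1.09%). In TSC against PC the count was 0 without TSC replicate 3 or any PC library, where 0.0708% to 0.212% of all tested genes passed. Where CTC is left with 1 library, that library is assumed to vary like the other groups. ALDOC and PFKFB4 passed in CTC against PC when any other library was left out. SLC2A1 and PFKL each lost the call without some other library as well, adjusted p up to 0.103 and 0.0841, and P4HA2 and ENO2 lost it without any of TSC replicate 3, CTC replicate 1 and the 3 PC replicates.

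The other genes of the pathway were taken from lists that, like the members, were chosen with earlier results of these data known. They gave few calls by edgeR. Of 17 genes of HIF itself and its control, 15 were tested, and 0 passed in TSC against PC by edgeR, with 3 at an unadjusted p under 0.05, 0 by DESeq2 and 1, VHL, lower by limma-voom. In CTC 1 rose, beside 1.4% of all tested genes. That gene was HIF1A, which encodes the oxygen-regulated subunit, at 217, 164 and 206 CPM in TSC, 296 and 249.97 CPM in CTC and 151, 150.1 and 149 CPM in PC. All TSC and CTC libraries were above PC. Its mRNA was 1.81-fold higher in CTC than in PC (log2 fold change 0.86 ± 0.18 SE, adjusted p = 0.0214), and in TSC against PC the value was 0.38 ± 0.16 SE, adjusted p = 0.440. EPAS1, encoding the HIF2 subunit, had 0.22 in TSC and −0.42 in CTC against PC, its partner ARNT −0.11 in TSC and −0.05 in CTC, and HIF1AN, the asparagine hydroxylase that restrains HIF, 0.18 in TSC and 0.25 in CTC. VHL, the ligase subunit that removes HIF, counted 28.1, 52.2 and 24.3 CPM in TSC, 23.9 and 33.4 CPM in CTC and 54.0, 52.3 and 42.8 CPM in PC, with log2 fold changes of −0.50 ± 0.26 SE in TSC against PC (adjusted p = 0.548) and −0.73 ± 0.32 SE in CTC against PC (adjusted p = 0.182). By edgeR, 0 of these 4 passed the test. The HIF1A call was lost without either CTC library or any PC library, with adjusted p between 0.0638 and 0.121 and log2 fold changes of 0.73 to 0.97.

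Further HIF targets numbered 32, of which 26 were tested and 1 was listed at 0 in every library. In TSC against PC, 2 fell and 0 rose by edgeR, where 0.281% of all tested genes fell and 0.224% rose. The median log2 fold change was −0.52, beside 0.01 for all tested genes. KDM7A, a histone demethylase gene, counted 11.1, 19.3 and 15.6 CPM in TSC, 32.9 and 28.5 CPM in CTC and 38.7, 30.4 and 36.3 CPM in PC. Its log2 fold change in TSC against PC was −1.18 ± 0.23 SE, adjusted p = 0.0358. WSB1, a SOCS-box ubiquitin ligase subunit, counted 47.2, 58.2 and 45.3 CPM in TSC, 75.8 and 60.0 CPM in CTC and 96.8, 94.7 and 93.5 CPM in PC, with −0.92 ± 0.17 SE, adjusted p = 0.0301 in TSC against PC. In CTC against PC, 3 fell and 0 rose by edgeR, where 2.52% of all tested genes fell and 1.4% rose. The median was −0.51, beside −0.04. PLOD1, a collagen lysyl hydroxylase, counted 349, 394 and 349.5 CPM in TSC, 222 and 225 CPM in CTC and 359, 431 and 557 CPM in PC, with −1.004 ± 0.20 SE, adjusted p = 0.0167 in CTC against PC. INSIG2, a brake on sterol synthesis, counted 14.7, 19.3 and 23.9 CPM in TSC, 17.95 and 11.2 CPM in CTC and 34.6, 30.3 and 32.8 CPM in PC, with −1.30 ± 0.31 SE, adjusted p = 0.0339. KDM4B, a histone demethylase, counted 33.6, 75.0 and 56.4 CPM in TSC, 45.9 and 30.3 CPM in CTC and 85.7, 91.3 and 107 CPM in PC, with −1.39 ± 0.31 SE, adjusted p = 0.0265. At an unadjusted p under 0.05, 3 were higher and 9 lower in TSC, beside 5.05% higher and 5.25% lower among all tested genes. In CTC 2 were higher and 12 lower, beside 9.67% higher and 13.9% lower. DESeq2 called 0 higher and 3 lower in TSC and 1 higher and 6 lower in CTC, and limma-voom 2 higher and 6 lower in TSC and 2 higher and 10 lower in CTC. Among all tested genes in either direction, DESeq2 called 1.34% in TSC and 7.89% in CTC, and limma-voom 3.88% in TSC and 11.6% in CTC. Of the genes called by limma-voom, BHLHE40 in TSC and PLOD2 and PPFIA4 in CTC overlapped PC. The genes called by edgeR did not overlap PC in the comparison that called them. Among all tested genes, 9.9% lay below PC without overlap in TSC and 24.7% in CTC. Leaving out TSC replicate 3 or any PC library ended the calls of KDM7A and WSB1 (adjusted p up to 0.207), as leaving out TSC replicate 1 did for KDM7A. In CTC against PC, leaving out CTC replicate 2, PC replicate 2 or PC replicate 3 ended all 3 calls (adjusted p up to 0.367), and leaving out TSC replicate 3 or PC replicate 1 ended those of INSIG2 and KDM4B.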

How the data were processed

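RNA was measured in 3 TSC, 2 CTC and 3 PC libraries, grouped by title. Total RNA was depleted of ribosomal RNA, per the labels' protocols. The authors deposited raw counts per gene, not normalized. The submitters' processing notes name STAR 2.5.3a, featureCounts 1.5.3 and the hg38 build. The annotation, strand setting, handling of multi-mapping reads and any removal of host reads are not stated in the sources used here, so overlapping genes, pseudogene families and host reads could affect counts. All 39533 rows name a gene, 22986 of them with a count.

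The test was edgeR 4.0.16 (R 4.3.3), after filterByExpr and TMM, with glmQLFit and glmQLFTest, and with all 8 libraries in 1 fit sharing the estimate of spread. Calls have an adjusted p under 0.05 (Benjamini-Hochberg, 14255 tested genes). The SE is the log2 fold change divided by the square root of F. CPM uses tested-gene totals and TMM factors. Adjusted p-values come from this test except where another tool is given. Those with libraries left out or thinned are over the genes tested in that fit. The members and lists were chosen with earlier results of these data known. Values in every library are given for members called anywhere and for those with the smallest p, 10 in TSC against PC and 5 in each other comparison, counted among all members and again beyond the called ones. Pathway genes outside the members are named if called, together with 6 HIF regulators. Alternatives were DESeq2 size factors, DESeq2 1.42.0, limma-voom (limma 3.58.1), other filters, only the 2 groups of a comparison, the replicate number as a block, thinning to the shallowest library and each library left out in turn. No library pair agreed within sampling noise (0 pairs by chi-square). Exon overlaps, transcript lengths and pseudogene names are from GENCODE 29 on GRCh38. The scripts were tested on simulated data. Of 2-fold changes put into such data, 29.2% were called in TSC against PC, 21.9% in CTC against PC and 32% in TSC against CTC. A gene that was not called may therefore still differ.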

Additional observations from a re-analysis of the deposited data

How the results depend on the processing

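Across the 41 genes, 0 called values changed sign under any alternative. Of 1917 gene values under alternatives, 1744 stayed on their side of the threshold, 37 lost a call and 136 gained one. In 69 of the 1917 the direction differed from that of the main test, and these values were not called in either. In TSC against PC the number of members called was 12 with no filter on low counts, beside 1.54% of all tested genes. It was 5 with DESeq2 (1.34% of all tested genes), 9 with limma-voom (3.88%), 3 with only the compared groups (0.967%) and 4 with thinned libraries (0.57%). In CTC against PC it was 23 with no filter (6.68% of all tested genes), 14 with DESeq2 (7.89%) and 21 with limma-voom (11.6%). With only the compared groups it was 20 (10.2%). With thinned libraries it was 6 (2.82%), and ANKRD37 and P4HA2 were no longer called. In TSC against CTC it was 6 with no filter (3.17% of all tested genes), 4 with DESeq2 (2.74%) and 6 with limma-voom (3.09%). Leaving out 1 library at a time gave 0 to 3 members and medians of −0.44 to −0.25 in TSC against PC, 0 to 22 and −0.89 to −0.58 in CTC against PC, and 0 to 6 and 0.12 to 0.49 in TSC against CTC. DESeq2 size factors and a stricter filter left these counts at 1 in TSC against PC, 7 in CTC against PC and 0 in TSC against CTC. The number of all genes called ran from 10 to 553 around 72 in TSC against PC, from 35 to 1660 around 559 in CTC against PC, and from 36 to 728 around 128 in TSC against CTC. The cause was not tested.

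Replicate numbers recur between groups, but the pairing found no support, since deviations of same-numbered TSC and PC libraries correlated at 0.033, −0.134 and 0.094 and TSC replicate 1 correlated best with PC replicate 2 (0.167). With the replicate number as a block, 2 members were called in TSC against PC, 3 in CTC against PC and 0 in TSC against CTC, among 67 genes called in all in TSC against PC, 261 in CTC against PC and 61 in TSC against CTC. The block ended the calls in CTC against PC of ANKRD37 (adjusted p = 0.101), P4HA2 (0.114), PFKL (0.0546) and ENO2 (0.0821).

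Isozyme shares depend on the length chosen. With the median transcript length, the mean share of HK2 was 14.8% in TSC, 14.0045% in CTC and 17.3% in PC, that of PDK1 46.6% in TSC, 39.4% in CTC and 49.2% in PC, and that of PFKFB4 54.3% in TSC, 49.2% in CTC and 73.9% in PC. PFKP was then 68.5% in TSC, 65.5% in CTC and 67.6% in PC, ALDOC 68.8% in TSC, 72.7% in CTC and 75.3% in PC, ENO2 0.758% in TSC, 0.714% in CTC and 1.44% in PC, and SLC2A3 0.771% in TSC, 0.645% in CTC and 0.980% in PC. The ALDOC share, taken of ALDOA and ALDOC, is uncertain, since 42.3% of the ALDOA exon bases are shared with another gene model on the same strand. The shallowest library, CTC replicate 1, and the 2 CTC libraries limit what can be detected in that group.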

Other observations

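Glycolysis genes outside the 41 mostly had low counts, with 9 of 20 tested and 3 at 0 in every library, and by edgeR 0 passed the test in any comparison, with 1 at an unadjusted p under 0.05 in each. DESeq2 called 0 of them, and limma-voom called 1, HKDC1, lower in TSC than in PC. Of 19 genes of pyruvate entry into mitochondria and of gluconeogenesis, 18 had a row, 14 were tested and 0 passed by edgeR, with 3 at an unadjusted p under 0.05 in TSC against PC, 3 in CTC against PC and 2 in TSC against CTC. DESeq2 and limma-voom each called 1 of them, PDP1, lower in TSC than in PC. PDP1, the phosphatase that reactivates pyruvate dehydrogenase and so opposes PDK1, and HKDC1, a hexokinase-like gene, were named after their values were seen. PDP1 counted 463, 413 and 551 CPM in TSC, 843 and 517 CPM in CTC and 873, 847 and 763 CPM in PC. All TSC libraries were below all PC libraries, and CTC overlapped PC, with log2 fold changes of −0.80 ± 0.18 SE, adjusted p = 0.0846 in TSC against PC and −0.29 ± 0.21 SE, adjusted p = 0.420 in CTC against PC.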
